A study of Homo sapiens with 24 samples.

Results

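Rotenone and the methylphenylpyridinium ion (MPP), which both inhibit complex I of the mitochondrial respiratory chain, were compared directly in neurons of dopaminergic type differentiated from LUHMES cells, an immortalised human mesencephalic line. The comparison took the 3 rotenone and the 3 MPP libraries, 6 of the 24 in the series, and covered the 18852 genes that passed the expression filter. Rotenone was given at 1 µM and MPP at 5 µM, each for 6 h in 1% DMSO, and the 3 libraries of cultures with 1% DMSO alone served as the reference level. The doses differ, so the differences below are between these treated groups at these doses and say nothing of potency. All groups had been differentiated with tetracycline and cAMP in medium with GDNF, the labels call the libraries biological samples in triplicate, and no label says whether separate differentiations were used.

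Complex I takes electrons from NADH and passes them to ubiquinone while pumping protons, and most of its subunits are encoded in the nucleus and the rest in mitochondrial DNA. Rotenone is a lipophilic plant product that enters any cell and is also known to bind tubulin and hinder microtubule assembly. MPP, the active product of the toxin MPTP, is a charged molecule that enters dopaminergic neurons through the dopamine transporter and gathers in mitochondria. Both compounds are used to model the loss of dopaminergic neurons in Parkinson disease.

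The rotenone libraries were the least alike, and replicates 2 and 3 of that group were the shallowest of the 9. The rotenone libraries held 24.7, 9.69 and 12.4 megareads counted to genes, against 31.8, 29.3 and 20.6 megareads in MPP and 14.3, 24.7 and 33.4 in DMSO. The biological coefficient of variation within a group, the spread of a gene's level beyond counting error, was 22.7% in rotenone, 9.5% in MPP and 7.04% in DMSO. Rotenone replicate 1 stood farthest from the rest, with a quality weight of 0.169 where the other 8 libraries of these groups had 0.704 to 2.68. All 25 pan-neuronal markers reached 1 CPM (reads per megaread of the scaled library total) in each group. Of 18 dopaminergic markers, 11 reached 1 CPM in rotenone, 11 in MPP and 12 in DMSO. The transcription factors FOXA2 and LMX1A, which define midbrain dopaminergic precursors, had no read in any of the 9 libraries. Of 16 astrocyte and oligodendrocyte markers, 11 reached 1 CPM in rotenone, 10 in MPP and 11 in DMSO. Among them SOX10 had no read in these libraries, MOG had none in rotenone or DMSO, and GFAP had none in rotenone.

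In the direct comparison 1270 genes, 6.74% of those tested, passed edgeR's quasi-likelihood F test at a Benjamini-Hochberg adjusted p under 0.05. Rotenone was higher for 575 genes (3.05%) and lower for 695 (3.69%), at least 2-fold for 134 and 115 of them, and the median log2 difference over all tested genes was -0.01. Of the tested genes, 21.1% had levels that did not overlap between the 3 rotenone and the 3 MPP libraries. The fit held all 24 libraries, so that all 8 groups shared 1 estimate of the spread. With only the rotenone and MPP libraries in the fit, 159 genes passed (84 higher, 75 lower, 1% of those tested), and all 159 were among the 1270. Without rotenone replicate 1 the count was 2177, and without MPP replicate 1, 2 or 3 it was 834, 522 or 743. With library totals in place of the scaling used here, the split was 992 higher and 355 lower, or 73.6% higher.

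**Figure D1:**
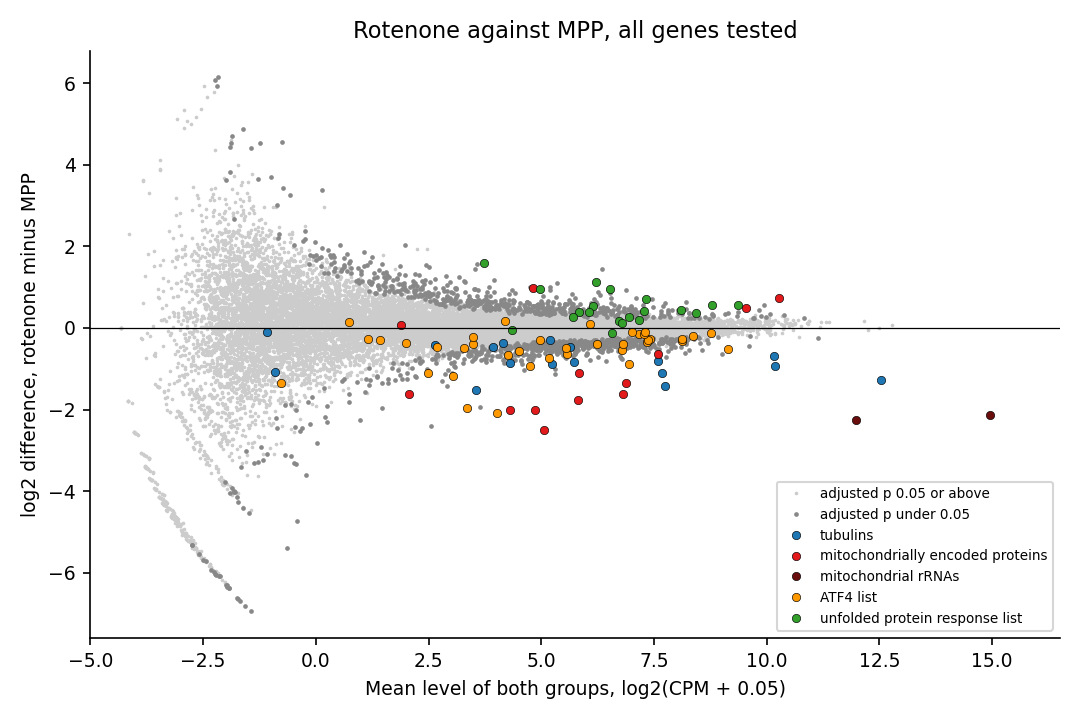
Log2 difference between rotenone and MPP (vertical axis) against the mean level of both groups on a log2 scale of CPM plus 0.05 (horizontal axis) for all 18852 genes tested, 1 point a gene, with 5 gene lists in colour. The tubulins and most mitochondrially encoded genes lie below 0 and most of the unfolded protein response list lies above it; points in lines at the far left are genes with no read in 1 of the groups.

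One family that separated the treatments was the tubulins, the alpha and beta subunits of microtubules and the gamma, delta and epsilon forms of centrosomes and centrioles. Of 17 tubulin genes tested 10 were lower in rotenone than in MPP and 0 were higher, with a median log2 difference of -0.84 (all genes, -0.01; background 3.69% lower). The same count, 10, passed with the 2 groups alone. Soluble tubulin is known to lower its own messenger RNA: the factor TTC5 recognises the first residues of nascent alpha and beta tubulin on the ribosome, methionine followed by arginine and glutamate, and the messenger is then degraded. The first 15 coding bases of principal GENCODE 29 transcripts are therefore shown for tubulins on both sides of the test, with the pair of codons after the start codon in capitals.
TUBA1A: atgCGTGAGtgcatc
TUBA4A: atgCGTGAAtgcatc
TUBB2A: atgCGCGAGatcgtg
TUBB: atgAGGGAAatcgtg
TUBB3: atgAGGGAGatcgtg
TUBB6: atgAGGGAGatcgtg
TUBG1: atgCCGAGGgaaatc
TUBD1: atgTCAATTgtaaca
Of 13 tested tubulins in which that pair encodes arginine and glutamate, 9 were lower in rotenone and 4 did not pass. Of 4 that start otherwise, only TUBG1 was lower and 3 did not pass. TUBB3 and TUBB6 begin with the same bases as each other and were not called.

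TUBA1A (chromosome 12, 49184796 to 49189324, GRCh38), the main alpha tubulin of young neurons, stood at 3117, 3747 and 3581 CPM in the 3 rotenone libraries. In MPP it stood at 8710.02, 8459 and 8204 CPM, and in DMSO at 11626, 11354 and 10742 CPM. Each rotenone library lay below each MPP library, and each MPP library below each DMSO library. The level in MPP was 2.43 times that in rotenone (log2 difference -1.28 ± 0.08 SE, edgeR adjusted p = 1.63e-12), and both were lower than DMSO (log2 difference -1.69, edgeR adjusted p = 9.48e-16, and -0.41, edgeR adjusted p = 0.000414). The beta tubulin TUBB2A (chromosome 6, 3153669 to 3157526) had 100.2, 119 and 129 CPM in rotenone, 319, 326 and 294 in MPP and 362, 368 and 347 in DMSO. Rotenone lay below the other groups with no overlap, at a log2 difference from MPP of -1.43 ± 0.09 SE (edgeR adjusted p = 7.72e-12), while MPP differed from DMSO by -0.20 (edgeR adjusted p = 0.174, and 0.0238 with those 2 groups alone).

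The other lower tubulins were TUBB4A (log2 difference -1.51), TUBB4B (-1.10), TUBB (-0.94), TUBA1C (-0.88), TUBA4A (-0.85), the gamma tubulin TUBG1 of the microtubule nucleating ring (-0.84), TUBA1B (-0.82) and TUBB2B (-0.68), with edgeR adjusted p-values from 6.07e-11 to 5.92e-05. TUBB3, the neuronal class III beta tubulin, had 42.9, 42.8 and 39.7 CPM in rotenone and 48.0, 48.3 and 77.1 in MPP, and its log2 difference of -0.46 did not pass (edgeR adjusted p = 0.112). TUBD1 (-0.47), TUBE1 (-0.37), TUBG2 (-0.41) and TUBB6 (-0.30) did not pass either, nor did TUBAL3 and TUBB1, which were under 2 CPM in both groups. Tubulin genes are near-identical in parts, and how reads were shared out between them is uncertain. All alpha and beta tubulins together took 0.560% ± 0.0495 (SD, n = 3) of counts in rotenone, 1.17% ± 0.0544 (SD, n = 3) in MPP and 1.55% ± 0.0437 (SD, n = 3) in DMSO.

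**Figure D2:**
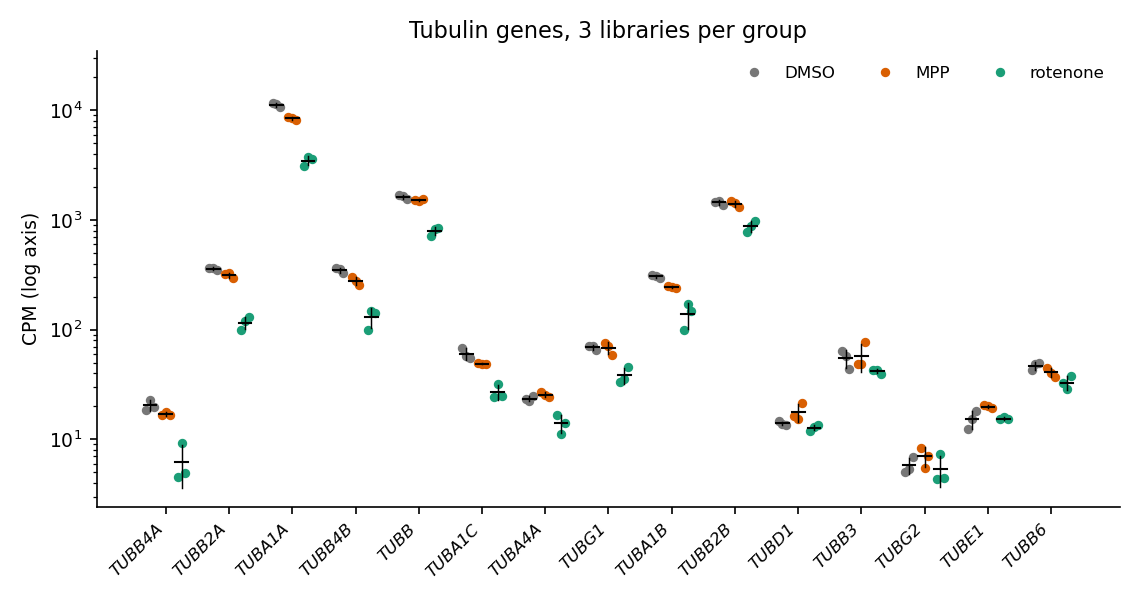
CPM of the 15 tubulin genes with at least 2 CPM in either treated group, on a log axis, with 1 point a library, the mean as a bar and 1 SD as a line; genes are ordered from the most to the least negative log2 difference between rotenone and MPP. For the 10 genes on the left, from TUBB4A to TUBB2B, the rotenone points lie below those of MPP and DMSO.

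Against DMSO, 12 tubulins were lower in rotenone (background 2.76%) and 3 in MPP (background 5.02%), and none was higher in either; these comparisons share the DMSO libraries. With the 2 groups of each comparison alone, 10 were lower in rotenone, and 6 were lower and 1 higher in MPP (TUBE1, log2 difference 0.37 in the fit of all groups). Few genes that act on tubulin were called. Of 22 genes of tubulin folding and autoregulation 1 differed, the folding cofactor TBCD, which was higher in rotenone at a log2 difference of 0.44 (edgeR adjusted p = 0.00355, and 0.0995 with the 2 groups alone). TTC5 had a log2 difference of -0.29 (edgeR adjusted p = 0.0543). None of 34 microtubule-associated proteins and stathmins and none of 41 kinesin and dynein motors was called, with median log2 differences of -0.05 for each list. In bulk RNA a lower level per cell and fewer cells that express a gene cannot be told apart.

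Genes of the mitochondrial genome also separated the treatments. Both mitochondrial ribosomal RNAs were lower in rotenone than in MPP, as were 9 of the 13 mitochondrially encoded proteins, while 3 were higher (background 3.69% lower and 3.05% higher). With the 2 groups alone 8 of the proteins were lower and 2 higher. Mitochondrial DNA is copied into long RNAs from its heavy and its light strand, which are cut at transfer RNAs into messengers, ribosomal RNAs and transfer RNAs.

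MT-RNR1 (mitochondrial genome, 648 to 1601), the small ribosomal RNA, stood at 1298, 1601 and 1288 CPM in rotenone, 5806, 5749.95 and 8492 in MPP and 1734, 1255 and 1323 in DMSO. MPP replicate 3 was the highest, and rotenone overlapped with DMSO. The level in MPP was 4.79 times that in rotenone (log2 difference -2.26 ± 0.14 SE, edgeR adjusted p = 4.13e-12). MT-RNR2, the large ribosomal RNA, was 4.36 times as high in MPP as in rotenone (edgeR adjusted p = 1.27e-09). Rotenone differed from DMSO by a log2 value of -0.04 for MT-RNR1 and 0.10 for MT-RNR2 (edgeR adjusted p = 0.906 and 0.811). Together the pair took 1.19, 1.55 and 1.19% of counts in rotenone, from 4.69 to 6.91% in MPP and 1.59, 1.11 and 1.05% in DMSO. In the 15 libraries of the other toxicants the share ran from 0.815 to 1.93%. The RNA had been selected for polyadenylated transcripts and depleted of ribosomal RNA, and the part of that depletion in these shares was not tested.

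Complex I has 7 subunits encoded in mitochondria, and they did not move together. MT-ND1 had 7.12, 10.9 and 12.4 CPM in rotenone, 52.6, 51.5 and 64.8 in MPP and 15.7, 17.3 and 18.6 in DMSO. The groups did not overlap, with MPP highest and rotenone lowest, and the level in MPP was 5.69 times that in rotenone (log2 difference -2.51 ± 0.22 SE, edgeR adjusted p = 7.88e-09). MT-ND4L (log2 difference -2.01), MT-ND2 (-2.01), MT-ND5 (-1.77) and MT-ND4 (-1.35) were also lower in rotenone, with edgeR adjusted p-values from 8.91e-08 to 1.09e-06. MT-ND3 was higher, with 38.5, 38.0 and 35.4 CPM in rotenone, 17.8, 16.4 and 22.9 in MPP and 44.2, 43.5 and 39.5 in DMSO. Its MPP libraries lay below all the others, at a log2 difference of 0.98 ± 0.14 SE (edgeR adjusted p = 1.78e-05). MT-ND6, the only protein encoded on the light strand, had a log2 difference of 0.07 (95% interval of the fit -0.53 to 0.67, edgeR adjusted p = 0.921), and -0.15 without MPP replicate 1.

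Of the other complexes, MT-CYB of complex III (log2 difference -1.62) and MT-ATP8 (-1.61) and MT-ATP6 (-1.11) of the ATP synthase were lower in rotenone. The 3 mitochondrially encoded subunits of cytochrome c oxidase went in opposite directions. MT-CO3 stood at 0.73 (edgeR adjusted p = 4.94e-05), MT-CO1 at 0.48 (edgeR adjusted p = 0.00903) and MT-CO2 at -0.64 (edgeR adjusted p = 0.00507). The call of MT-CO1 was lost without rotenone replicate 3 (edgeR adjusted p = 0.0518), MPP replicate 1 (0.0611) or MPP replicate 2 (0.0687), and that of MT-CO2 without MPP replicate 3 (0.0679). A pair of transfer RNAs of the light strand, named after their values were seen in the case of MT-TY, was higher in rotenone. MT-TP, the proline transfer RNA, had 6.39, 6.61 and 5.66 CPM in rotenone, 1.52, 1.23 and 1.90 in MPP and 17.2, 8.56 and 9.88 in DMSO. The 3 groups were apart, in the order MPP, rotenone, DMSO, and rotenone exceeded MPP by 4.08 times (log2 difference 2.03 ± 0.24 SE, edgeR adjusted p = 1.51e-06). MT-TY, the tyrosine transfer RNA, had a log2 difference of 3.37 (edgeR adjusted p = 0.00262) on few reads, with means of 1.90 CPM in rotenone, 0.187 in MPP and 1.74 in DMSO.

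Taken as 1 list, the mitochondrially encoded proteins had a median log2 difference of -1.35 (all genes, -0.01), and 12 of 13 had no overlap between rotenone and MPP (background 21.1%). Their summed share of counts did not follow that median. It was 0.279% ± 0.0361 (SD, n = 3) in rotenone, 0.230% ± 0.0313 (SD, n = 3) in MPP and 0.290% ± 0.00947 (SD, n = 3) in DMSO, and rotenone and MPP libraries overlapped. MT-CO3 and MT-CO1, the members with the highest levels, were among those higher in rotenone. Against DMSO, whose libraries both comparisons share, MPP was higher for 9 and lower for 3 (background 5.77% and 5.02%). Rotenone was lower for 1, MT-ND1, and higher for none (background 2.76% and 2.76%), and that call was lost with the 2 groups alone (edgeR adjusted p = 0.0800). Reads from nuclear copies of mitochondrial DNA, and from the opposite strand, cannot be told apart here, since the counting's strand setting is not given in the sources used here.

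**Figure D3:**
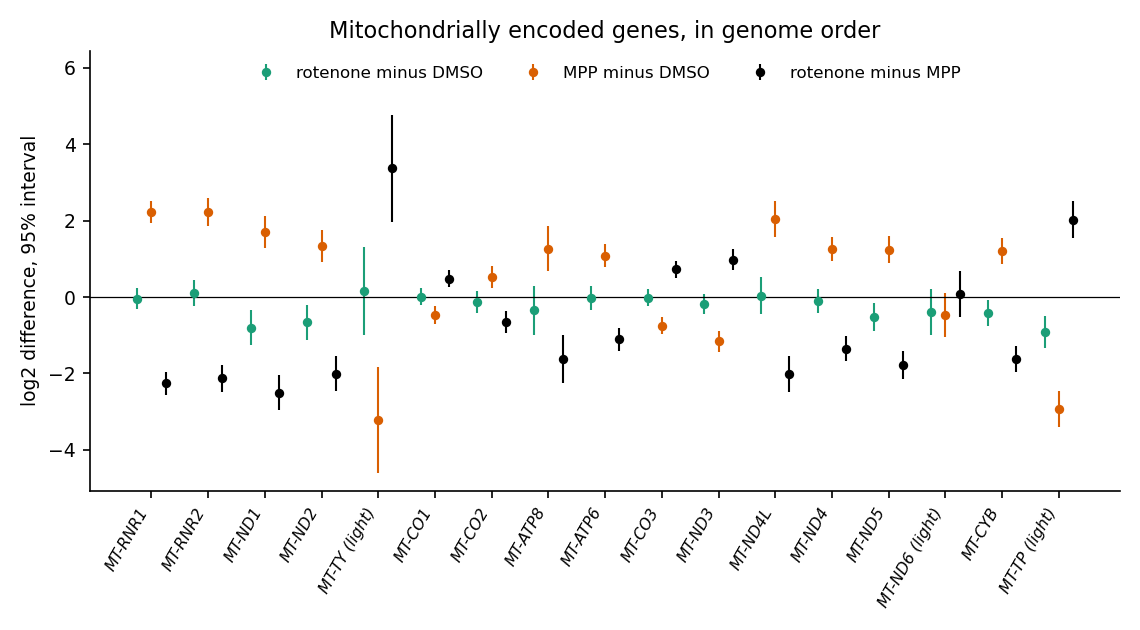
Log2 differences with 95% intervals of the fit for mitochondrially encoded genes in genome order: rotenone minus DMSO (green), MPP minus DMSO (orange) and rotenone minus MPP (black); genes marked light are encoded on the light strand. The orange points leave 0 for most genes and the green ones stay nearer to it, with MT-RNR1 at 2.22 in MPP and -0.04 in rotenone.

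Nuclear genes of the mitochondrion were called less often than those of the mitochondrial genome. Of 37 nuclear complex I subunits 2 were higher in rotenone (background 3.05%), NDUFC2 (log2 difference 0.50) and NDUFA11 (0.61), with a list median of 0.15, and neither passed with the 2 groups alone. Their calls were also lost without rotenone replicate 1 (edgeR adjusted p = 0.169 and 0.103), MPP replicate 1 (0.0746 and 0.0858) or MPP replicate 2 (0.115 and 0.197). Of 27 genes of mitochondrial transcription and RNA processing 4 were lower in rotenone and 0 higher (background 3.69% and 3.05%), and 1 was lower with the 2 groups alone. That one was POLG, the polymerase that copies mitochondrial DNA, with 32.6, 36.3 and 36.5 CPM in rotenone, 57.8, 63.2 and 50.6 in MPP and 39.8, 42.2 and 40.2 in DMSO. MPP lay above both other groups, and the log2 difference was -0.71 ± 0.14 SE (edgeR adjusted p = 0.00177). Of 16 mitochondrial chaperones and proteases 2 were lower and 0 higher (background 3.69% and 3.05%), and 1 was lower with the 2 groups alone. The lowest adjusted p was that of GRPEL2, the nucleotide exchange factor of mitochondrial HSP70 (log2 difference -0.57 ± 0.09 SE, edgeR adjusted p = 0.000203).

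The stress programmes of ATF4 and of the endoplasmic reticulum separated the compounds in opposite directions. ATF4 is translated when the initiation factor eIF2 is phosphorylated, and it switches on genes for amino acid synthesis and transport. Unfolded protein in the endoplasmic reticulum activates ATF6 and XBP1, which raise chaperones and folding enzymes of that compartment. Of 38 genes of the ATF4 list tested, 18 were lower in rotenone than in MPP and 0 were higher, with a median log2 difference of -0.38 (background 3.69% lower). Of 20 genes of the unfolded protein response, 13 were higher and 0 lower, with a median of 0.40 (background 3.05% higher). With the 2 groups alone the counts were 8 and 8, and without MPP replicate 2 they were 12 and 10.

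Promoters of these genes were searched on both strands for the letters that the factors are known to bind, in RefSeq windows from 250 bases before to 50 after each start (GRCh38.p14). The ER stress element, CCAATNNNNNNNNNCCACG, lay in 5 of 19 promoters of the unfolded protein response list and in 0.11% of the promoters of tested genes, and ER stress element II, ATTGGNCCACG, in 3 of 19 and 0.0941%. Windows of called genes follow with the match in capitals and 5 bases on each side, read along the gene's strand.
HSPA5: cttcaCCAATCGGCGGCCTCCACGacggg
HSP90B1: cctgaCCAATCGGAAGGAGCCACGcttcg
CALR: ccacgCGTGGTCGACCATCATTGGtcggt
CRELD2: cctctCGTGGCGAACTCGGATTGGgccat
SDF2L1: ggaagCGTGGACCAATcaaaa
HYOU1: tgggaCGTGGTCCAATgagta
HSPA5 lies at chr9:125241386-125241414 on the minus strand, HSP90B1 at chr12:103930211-103930239 on the plus strand and SDF2L1 at chr22:21642109-21642129 on the plus strand. In CALR, CRELD2, SDF2L1 and HYOU1 the match is on the opposite strand. XBP1 and HERPUD1 held a match and were not called. The core of the ATF4 composite element, TGATGNAA, lay in 7 of 33 promoters of the ATF4 list and in 1.76% of those of tested genes. ATF3, SLC7A1, SLC3A2, NARS1 and AARS1 of that list held it and were not called. The element was in 2 of the 14 called ones with a promoter in the table, on the opposite strand in CHAC1 (chr15:40953257-40953274) and on the gene's strand in ASNS (chr7:97872464-97872481, minus strand).
CHAC1: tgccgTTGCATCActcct
ASNS: aggcaTGATGAAActtcc
A match is a description of the letters in these windows, which do not reach introns or distant elements.

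CHAC1 (chromosome 15, 40952962 to 40956519), an enzyme that degrades glutathione, had 4.65, 7.87 and 6.64 CPM in rotenone, 29.1, 25.8 and 23.4 in MPP and 7.54, 8.72 and 8.90 in DMSO. Only the MPP libraries were high, and the level in MPP was 4.23 times that in rotenone (log2 difference -2.08 ± 0.21 SE, edgeR adjusted p = 1.15e-07). SLC7A11, which imports cystine for glutathione, had 5.18, 3.25 and 3.53 CPM in rotenone, 13.8, 15.3 and 20.1 in MPP and 2.28, 4.60 and 4.02 in DMSO. Again only MPP was high (log2 difference -1.97 ± 0.26 SE, edgeR adjusted p = 8.61e-06).

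PSAT1, of serine synthesis, showed a different order, with 90.5, 79.5 and 87.9 CPM in rotenone, 162, 161 and 156 in MPP and 123, 119.8 and 119.5 in DMSO. Here DMSO lay between the treated groups with no overlap, and the log2 difference between them was -0.89 ± 0.08 SE (edgeR adjusted p = 1.72e-08). Rotenone was below DMSO (log2 difference -0.49, edgeR adjusted p = 0.000321) and MPP above it (0.40, edgeR adjusted p = 0.00108). SESN2, a stress-induced inhibitor of mTORC1, had a log2 difference of -0.94, the transcription factor ATF5 -0.75, PSPH of serine synthesis -0.65 and ATF4 itself -0.50, with edgeR adjusted p-values from 0.000302 to 0.000466. ASNS, asparagine synthetase, was lower by a smaller amount (log2 difference -0.28, edgeR adjusted p = 0.0315), and its call was lost with the 2 groups alone (0.197). ASNS also lost it without rotenone replicate 1 (0.0522) or 2 (0.0616) and without MPP replicate 1 (0.0851), 2 (0.0721) or 3 (0.0771). ATF3, another factor of this response, had a log2 difference of -0.22 (edgeR adjusted p = 0.571). Against DMSO, 15 genes of the list were higher and 2 lower in MPP (background 5.77% and 5.02%), and 2 were higher and 6 lower in rotenone (background 2.76% and 2.76%). With the 2 groups of each comparison alone the counts were 17 and 3 in MPP and 1 and 3 in rotenone.

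Among the unfolded protein response genes SDF2L1 (chromosome 22, 21642261 to 21644298), a partner of chaperones in the endoplasmic reticulum, had 19.2, 18.3 and 22.1 CPM in rotenone, 7.16, 5.41 and 7.18 in MPP and 16.4, 17.4 and 15.996 in DMSO. The MPP libraries were low and the others high, and rotenone was 3.02 times MPP (log2 difference 1.60 ± 0.16 SE, edgeR adjusted p = 7.23e-08). MANF, a secreted protein that protects dopaminergic neurons, had 100.4, 112 and 94.8 CPM in rotenone, 49.9, 42.7 and 48.1 in MPP and 84.3, 74.0 and 73.2 in DMSO. Here rotenone lay above DMSO (log2 difference 0.41, edgeR adjusted p = 0.0228, and 0.0869 with those 2 groups alone) and MPP below it (-0.72, edgeR adjusted p = 4.11e-05), and rotenone was 2.18 times MPP (log2 difference 1.13 ± 0.11 SE, edgeR adjusted p = 6.34e-08).

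HSPA5, the main chaperone of that compartment, differed by 0.96, the co-chaperone DNAJC3 by 0.95, the disulfide isomerase PDIA4 by 0.72, HSP90B1 by 0.55 and the calcium-binding chaperone CALR by 0.55 on the log2 scale. Their edgeR adjusted p-values ran from 1.02e-06 to 0.000226. CRELD2 (log2 difference 0.40) and HYOU1 (0.36) were higher too, but CRELD2 lost its call without rotenone replicate 3 (edgeR adjusted p = 0.0546) or MPP replicate 2 (0.0567). HYOU1 lost it without rotenone replicate 2 (0.0938) or 3 (0.0959) or MPP replicate 2 (0.0602) or 3 (0.111). Against DMSO, 12 of the 20 were lower and 0 higher in MPP (background 5.02% and 5.77%), and 1, MANF, was higher and 0 lower in rotenone (background 2.76% and 2.76%). With the 2 groups of each comparison alone, 14 were lower in MPP and none was called in rotenone.

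**Figure D4:**
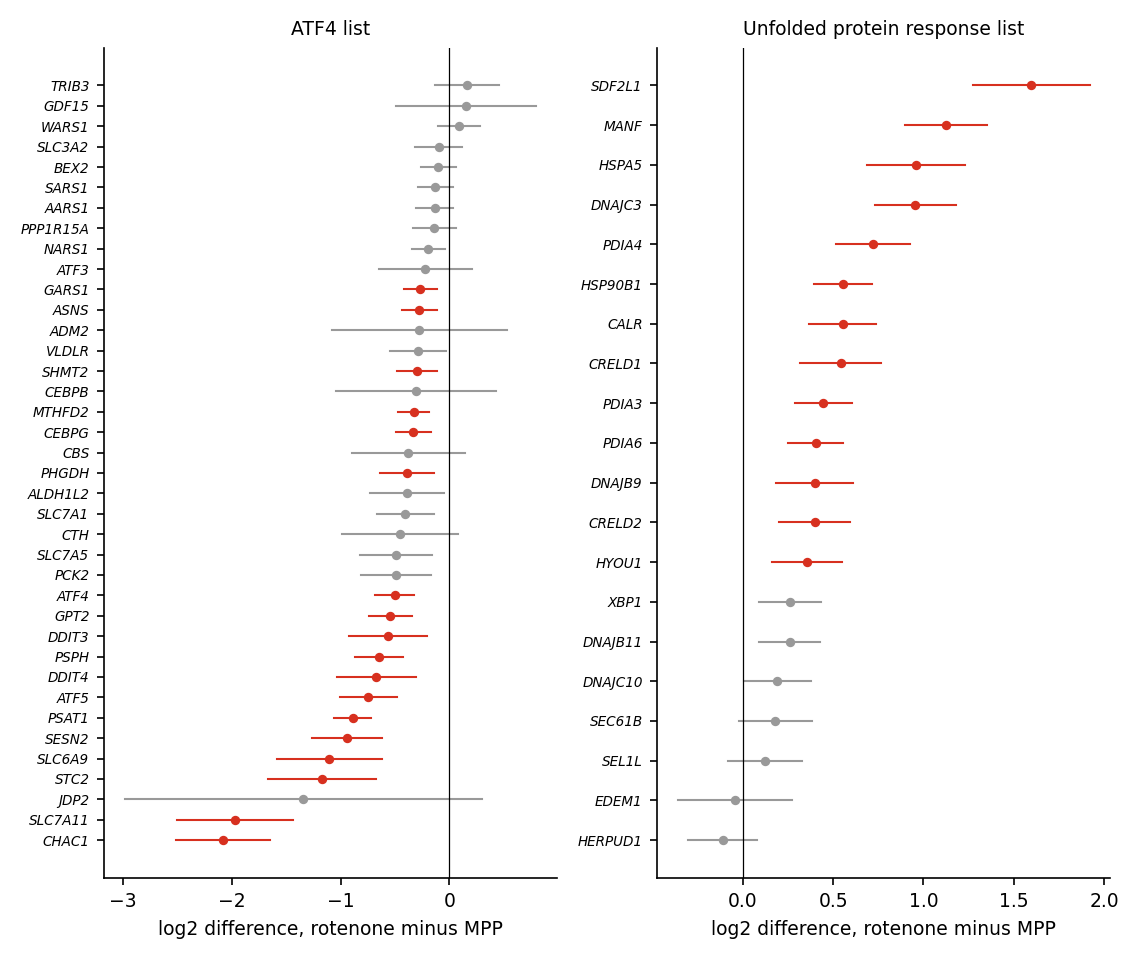
Log2 difference between rotenone and MPP with its 95% interval for the 38 tested genes of the ATF4 list (left) and the 20 of the unfolded protein response list (right); red marks an adjusted p under 0.05. The red genes lie left of 0 in the ATF4 list, down to CHAC1 at -2.08, and right of 0 in the other, up to SDF2L1 at 1.60.

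In the axon injury response the kinases DLK and JNK act on JUN after damage to axons or microtubules. Its genes were called in both directions, some with large differences, but the lower calls were lost under several alternatives. HRK (chromosome 12, 116856144 to 116881441), a BH3-only protein that promotes neuronal death and is induced through JNK and JUN, had 122, 121 and 114 CPM in rotenone, 41.2, 47.3 and 43.2 in MPP and 26.9, 29.5 and 24.8 in DMSO. The 3 groups did not overlap, and rotenone was 2.71 times MPP (log2 difference 1.44 ± 0.12 SE, edgeR adjusted p = 1.80e-09). Against DMSO the log2 difference was 2.14 in rotenone and 0.70 in MPP (edgeR adjusted p = 2.60e-13 and 0.000208). DUSP16, a phosphatase that acts on JNK, had 109, 105 and 126 CPM in rotenone, 73.6, 73.8 and 77.0 in MPP and 42.8, 47.3 and 42.4 in DMSO. Its groups were apart in the same order (log2 difference between the treated groups 0.60 ± 0.10 SE, edgeR adjusted p = 0.000219).

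JUN had 125, 146 and 182 CPM in rotenone and 112, 103 and 98.0 in MPP, with no overlap (log2 difference 0.53, edgeR adjusted p = 0.00478). Without rotenone replicate 3 its difference was 0.37 and did not pass (edgeR adjusted p = 0.0582), nor did it with the 2 groups alone (0.0848). Of 27 genes of this list 4 were higher and 2 lower (background 3.05% and 3.69%; 2 and 0 with the 2 groups alone), with a median log2 difference of 0.02. The count of lower genes was also 0 with library totals and with rotenone, MPP and DMSO only. It was 0 as well without rotenone replicate 2 or 3 or any MPP library.

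Of 20 genes of MAP kinase feedback 1 was higher and 4 were lower (background 3.05% and 3.69%), and with the 2 groups alone 1 was higher and 1 lower. DUSP5, a nuclear phosphatase of ERK, had 13.025, 11.97 and 13.12 CPM in rotenone, 23.4, 23.4 and 22.3 in MPP and 7.54, 10.3 and 11.4 in DMSO. MPP was high and the groups did not overlap (log2 difference -0.85 ± 0.15 SE, edgeR adjusted p = 0.000451). ETV4, an ETS factor induced by ERK, had a log2 difference of -1.95 on few reads (0.364, 1.36 and 1.89 CPM in rotenone, 4.82, 3.82 and 3.96 in MPP, edgeR adjusted p = 0.0116) and did not pass without rotenone replicate 1 (0.0551). DUSP6, the cytoplasmic phosphatase of ERK, differed by -0.66 (edgeR adjusted p = 0.0119) and did not pass without rotenone replicate 1 (0.0622) or MPP replicate 2 (0.0544). ETV5 differed by -0.35 (edgeR adjusted p = 0.0165) and did not pass without rotenone replicate 2 (0.0780) or MPP replicate 1 (0.0794). DUSP16, described above, was the higher member.

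Of 15 tested death genes of the BCL2 family HRK was higher and 2 were lower (background 3.05% and 3.69%; 1 and 0 with the 2 groups alone), among them PMAIP1, the BH3-only protein NOXA (log2 difference -0.86, edgeR adjusted p = 0.00417, and 0.120 with the 2 groups alone). Of 24 p53 targets 4 were lower in rotenone and 0 higher (background 3.69% and 3.05%), and none of the 4 passed with the 2 groups alone. The death receptor TNFRSF10B had 81.4, 87.6 and 89.1 CPM in rotenone, 119.99, 118 and 116 in MPP and 81.5, 78.3 and 86.6 in DMSO. Its MPP libraries were above all others (log2 difference -0.46 ± 0.08 SE, edgeR adjusted p = 0.000971, and 0.0614 with the 2 groups alone).

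TXNIP and ARRDC4, targets of the glucose-sensing transcription factor MondoA, were lower than DMSO under both treatments. Of the 7 tested members of the MondoA list, 1 was higher and 2 lower than DMSO in rotenone (background 2.76% and 2.76%). In MPP 2 were higher and 2 lower (background 5.77% and 5.02%). With the 2 groups of each comparison alone the counts were 0 and 2 in rotenone and 2 and 2 in MPP. TXNIP (chromosome 1, 145992435 to 145996600), which curbs glucose uptake, had 67.5, 62.1 and 66.4 CPM in rotenone, 43.9, 34.4 and 32.6 in MPP and 116, 123 and 130.1 in DMSO. The 3 groups were apart, with MPP lowest, and rotenone was 1.76 times MPP (log2 difference 0.82 ± 0.11 SE, edgeR adjusted p = 5.89e-06). ARRDC4, its relative and fellow target, had a log2 difference from DMSO of -1.14 in rotenone and -1.47 in MPP (edgeR adjusted p = 6.27e-06 and 2.64e-08), and the treated groups differed by 0.33 (95% interval 0.02 to 0.64, edgeR adjusted p = 0.199). The other 5 tested members of this list of 7 were not called between the treatments, among them MLXIP (log2 difference -0.22), which encodes MondoA, and MLX (-0.24), which encodes its partner. ARRDC3 (log2 difference 0.10) and ARRDC2 (0.24) changed sign without rotenone replicate 1, to -0.04 and -0.19.

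**Figure D5:**
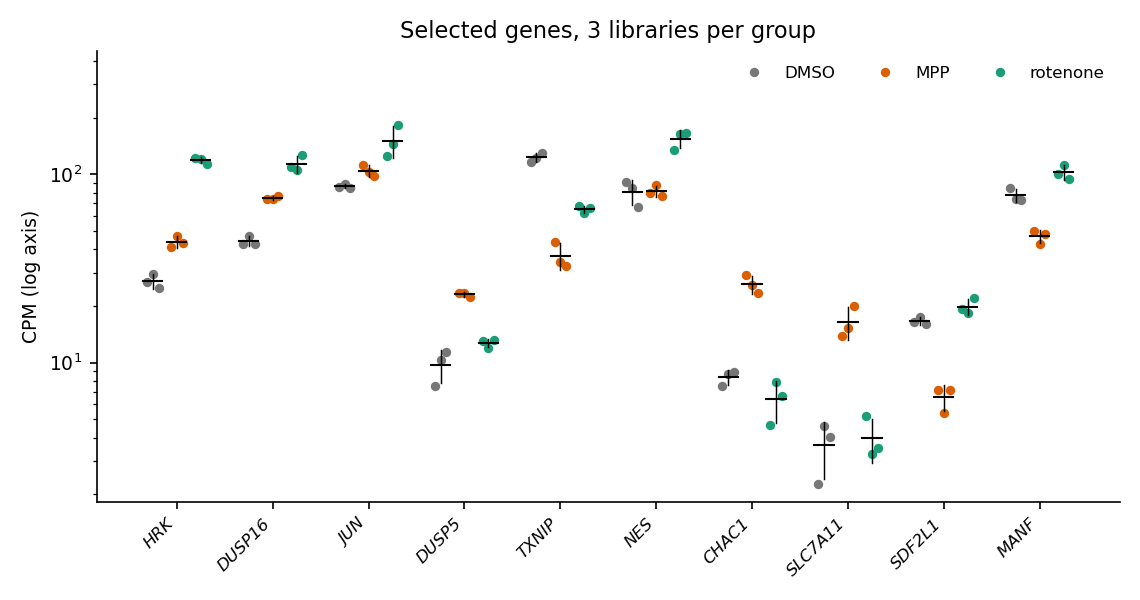
CPM of 10 genes of the stress, axon injury, glucose sensing and precursor lists on a log axis, with 1 point a library, the mean as a bar and 1 SD as a line. HRK, DUSP16 and NES are highest in rotenone, CHAC1, SLC7A11 and DUSP5 are highest in MPP, and TXNIP is lower in both treatments than in DMSO.

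Among lists tied to energy supply, hypoxia targets and glycolytic enzymes differed little between the treatments. None of 21 hypoxia targets was called between the treatments, with 0 also under the 2 groups alone. Against the shared DMSO libraries 5 were lower and 0 higher in rotenone (background 2.76% and 2.76%), with a median log2 difference of -0.35. In MPP 5 were lower and 0 higher (background 5.02% and 5.77%), with a median of -0.25. With the 2 groups of each comparison alone, 1 was lower in rotenone and 6 in MPP. Of 17 glycolytic enzymes 1 was called, PFKL (log2 difference 0.54, edgeR adjusted p = 0.0263), whose call was lost without rotenone replicate 2 (0.184) or 3 (0.0640) and without MPP replicate 1 (0.0598), 2 (0.0514) or 3 (0.128). Of 24 genes of cholesterol synthesis and uptake 5 were higher in rotenone and 0 lower (background 3.05% and 3.69%), and 1 was higher with the 2 groups alone. That gene was STARD4, a sterol carrier, with 199, 161 and 186 CPM in rotenone, 122, 116 and 134 in MPP and 154, 158 and 169 in DMSO. MPP lay below both other groups (log2 difference 0.56 ± 0.09 SE, edgeR adjusted p = 0.000370). The other 4 were TM7SF2 (0.44), SC5D (0.36), INSIG1 (0.28) and SQLE (0.23), and each lost its call without some library. For TM7SF2 these were rotenone replicates 2 and 3 and MPP replicates 2 and 3 (edgeR adjusted p = 0.0598, 0.0523, 0.0791 and 0.0530). For SC5D and INSIG1 they were rotenone replicate 3 and MPP replicates 1 and 2 (edgeR adjusted p = 0.0634, 0.115 and 0.0884, and 0.0744, 0.0589 and 0.0756). SQLE lost its call whichever rotenone (0.102, 0.0509 and 0.0851) or MPP library (0.144, 0.182 and 0.0526) was left out.

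Among 14 tested dopaminergic markers 2 were higher and 1 lower in rotenone than in MPP (background 3.05% and 3.69%; 1 and 0 with the 2 groups alone). DDC, which turns L-DOPA into dopamine, had 3.48, 3.99 and 3.28 CPM in rotenone, 1.19, 0.793 and 1.21 in MPP and 2.56, 3.39 and 2.40 in DMSO. MPP was the low group (log2 difference 1.75 ± 0.34 SE, edgeR adjusted p = 0.00188), on few reads. SLC6A3, the dopamine transporter through which MPP enters, had 839.99, 1129 and 1175 CPM in rotenone and 839.6, 798 and 698 in MPP. The ranges all but touched, at replicate 1 of each group (log2 difference 0.43, edgeR adjusted p = 0.0205), and the call was lost without rotenone replicate 2 (0.0890) or 3 (0.109) or MPP replicate 2 (0.0621) or 3 (0.118). RET, the receptor for GDNF, was lower (log2 difference -0.39, edgeR adjusted p = 0.0310) and lost its call without rotenone replicate 2 (0.0666) or 3 (0.0648) or any MPP library (0.0675, 0.0900 and 0.0694). TH, which makes L-DOPA, had 31.2, 40.0 and 43.5 CPM in rotenone, 32.1, 32.8 and 30.0 in MPP and 55.2, 51.4 and 45.9 in DMSO, and its difference of 0.26 between the treatments did not pass (edgeR adjusted p = 0.262).

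NES, the intermediate filament nestin of neural precursors, had 135, 164 and 166 CPM in rotenone, 79.8, 87.2 and 76.6 in MPP and 90.6, 84.9 and 67.0 in DMSO. Rotenone alone was high, at 1.90 times MPP (log2 difference 0.93 ± 0.12 SE, edgeR adjusted p = 8.34e-06). Of the 12 precursor markers NES was the 1 that was higher and 3 were lower (background 3.05% and 3.69%), and with the 2 groups alone 2 of these 3 did not pass and 1 was left out by the expression filter. The summed level of the 12 precursor markers ran from 358 to 428 CPM in rotenone, 334 to 390 in MPP and 297 to 308 in DMSO, and that of 23 cycling cell markers from 1110 to 1210, 1130 to 1170 and 1100 to 1170 CPM. SLC1A3, a glutamate transporter of astrocytes and precursors, was lower in rotenone (log2 difference -1.14 ± 0.24 SE, edgeR adjusted p = 0.00426). MBP, a myelin gene with other transcripts in neurons, was higher (0.65 ± 0.15 SE, edgeR adjusted p = 0.00708, and 0.0593 with the 2 groups alone). The summed level of the 16 astrocyte and oligodendrocyte markers was 243 to 266 CPM in rotenone and 238 to 240 in MPP, and the part of other cells in these values was not tested.

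Several of the largest differences fell outside the lists. PEAR1 (chromosome 1, 156893698 to 156916434), a receptor known from platelets, had 1.497, 2.099 and 2.051 CPM in rotenone, 10.5, 10.1 and 8.71 in MPP and 1.28, 0.808 and 1.33 in DMSO. Only MPP was high (log2 difference -2.41 ± 0.30 SE, edgeR adjusted p = 3.55e-06). ELFN2, a leucine-rich repeat protein of synapses, had 4.45, 5.88 and 5.41 CPM in rotenone, 18.9, 24.98 and 15.3 in MPP and 0.854, 1.05 and 1.48 in DMSO. The groups did not overlap: rotenone was above DMSO (log2 difference 2.13, edgeR adjusted p = 8.00e-06) and below MPP (-1.93 ± 0.24 SE, edgeR adjusted p = 2.42e-06). On the other side, NUDT18, a hydrolase of oxidised nucleotides, had 15.05, 13.96 and 24.44 CPM in rotenone and 6.20, 6.38 and 5.38 in MPP (log2 difference 1.56 ± 0.18 SE, edgeR adjusted p = 1.41e-06). RENBP, an epimerase of amino sugars, differed by 1.54 ± 0.22 SE (edgeR adjusted p = 3.05e-05). In DMSO both genes lay near the rotenone level, at 18.2 ± 0.812 and 6.25 ± 1.11 CPM (SD, n = 3).

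The calls of the remaining lists are given against a background of 3.05% higher and 3.69% lower. Of 26 NRF2 targets 1 was lower, SLC7A11, and of 25 genes of the SRF and actin response 1 was lower, VCL, which links actin to adhesion sites (log2 difference -0.45, edgeR adjusted p = 0.00387, and 0.0953 with the 2 groups alone). Of 19 heat shock targets 1 was higher and 3 lower, of 18 immediate early genes only JUN was called, and of 18 Parkinson disease genes 2 were lower. Of 75 cytosolic ribosomal proteins 2 were higher, and 0 of 7 tested NF-kB and chemokine genes were called. None of the heat shock, immediate early, Parkinson disease or ribosomal protein genes of these lists passed with the 2 groups alone. None of 8 tested metallothioneins was called, although MT1G and MT2A had log2 differences of 1.92 and 1.43. MT1G stood at 18.5, 1.15 and 1.48 CPM in rotenone and 1.58, 2.09 and 3.38 in MPP, so that replicate 1 alone was high. Without rotenone replicate 1 the difference was -0.75 for MT1G and -0.04 for MT2A.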

How the data were processed

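Polyadenylated RNA depleted of ribosomal RNA was sequenced (Illumina TruSeq), per the labels' protocols. The submitters' processing notes name the aligner STAR, the counter HTSeq and the build GRCh38, with version, annotation and strand setting not given in the sources used here. Raw counts deposited by the authors cover 58051 genes in 24 libraries, with 0 columns outside the samples. Their normalized matrix was not used here.

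Counts were fitted with edgeR 4.0.16 (R 4.3.3): TMM scaling, default expression filter, 8 group coefficients, 16 residual degrees of freedom, quasi-likelihood F test, Benjamini-Hochberg adjustment over all 18852 genes at 0.05. Adjusted p-values and 95% intervals are from this fit. Alternatives used DESeq2 1.42.0 and limma 3.58.1. The procedure was run on simulated data in which all groups had the same spread, so that run does not cover the wider spread of the rotenone libraries. Python 3.11.15, numpy 2.4.6 and matplotlib 3.10.9 drew the plots.

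The comparison and the 33 lists were chosen with earlier results of these data known. Named genes were taken from the 15 largest differences each way (adjusted p under 0.05, at least 2 CPM, no overlap, no clone names), the 4 lowest adjusted p-values per list and all tubulin, MondoA and mitochondrial list members; the remaining names, among them MT-TY, TH, ATF3, HYOU1 and CRELD2, were chosen after their values were seen. Coordinates are from GENCODE 29 (57447 genes matched) and promoters from RefSeq.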

Additional observations from a re-analysis of the deposited data

How the results depend on the processing

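For the direct comparison the count of 1270 (575 higher, 695 lower) became 159 (84, 75) with the 2 groups alone, 586 (313, 273) with rotenone, MPP and DMSO only, and 1961 (870, 1091) by limma-voom with quality weights. Library totals gave 992 higher and 355 lower, and DESeq2 929 higher. Leaving out 1 library gave 522 to 2177 in all, 235 to 918 higher and 287 to 1259 lower. Rotenone against DMSO, 1041 (521, 520), became 211 (122, 89), 556 (328, 228) and, by limma-voom, 1675 (947 higher), with 838 higher by DESeq2; leaving out 1 library gave 483 to 1616, 244 to 799 and 239 to 817. MPP against DMSO, 2034 (1088, 946), became 3983 (2152, 1831) with the 2 groups alone and 5641 (3067, 2574) by limma-voom, library totals gave 592 higher and 1564 lower, and leaving out 1 library gave 1142 to 1430, 612 to 799 and 518 to 641. Some of these alternatives held fewer samples or tested fewer genes, counts moved both up and down, and the cause was not tested.

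With the replicate number as a block 1045 genes differed between the treatments, 890 between rotenone and DMSO and 1860 between MPP and DMSO. Same-numbered rotenone and MPP libraries had correlations of their deviations from the group means of -0.212, 0.0596 and -0.174. Rotenone replicate 1 with MPP replicate 3 had 0.269. Deviations of 3 libraries from their own mean depend on one another, and rotenone replicate 1 stood far apart. These values therefore cannot settle whether the numbers pair the libraries.

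Of 97 genes with an alternative computed, 79 were called between the treatments, all 79 in the same direction under each alternative. Of these 59 stayed called whichever 1 library was left out, 54 with the 2 groups alone, 79 by DESeq2 and 78 by limma-voom. Many of these genes were chosen for low adjusted p-values or large differences in these same libraries, so their counts do not hold for all calls. With the 2 groups alone 159 of all 1270 called genes stayed called. Uncalled differences that changed sign were, by the range over leaving out 1 library, MT-ND6 (-0.15 to 0.34), TUBB1 (-0.48 to 0.27), ARRDC3 (-0.035 to 0.22), ARRDC2 (-0.19 to 0.57), MT1G (-0.75 to 2.35) and MT2A (-0.042 to 1.82), and by limma-voom TUBB1 (0.25), ARRDC3 (-0.0079), ARRDC2 (-0.16), MT1G (-0.015) and MT2A (-0.11). With 9.69 to 31.8 megareads a library, genes of a few reads were imprecise.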

Other observations

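Antisense and lincRNA genes tended to be higher in rotenone than in MPP, which the lists above do not show. Of 1237 tested genes that GENCODE 29 calls antisense, 57 (4.61%) were higher in rotenone than in MPP and 13 (1.05%) lower, with a median log2 difference of 0.24. Of 1257 lincRNA genes 60 (4.77%) were higher and 16 (1.27%) lower, with a median of 0.26. The background was 3.05% higher and 3.69% lower. With the 2 groups alone 4 antisense genes were higher and 1 lower (median 0.30) and 12 lincRNA genes were higher and 0 lower (median 0.25), and by limma-voom the medians of all groups' fit were 0.09 and 0.07. Of 14431 protein-coding genes 426 were higher and 642 lower, with a median of -0.03. Of 583 processed pseudogenes 2 were higher and 1 lower, with a median of 0.05. Among 316 divergent transcripts, a class picked after its values were seen by names that end in -DT, 28 (8.86%) were higher and 1 (0.316%) lower, with a median of 0.44. These RNAs are made in the opposite direction from the promoter of a neighbouring gene and are usually short-lived. One example is DNAJC3-DT (chromosome 13, 95648733 to 95676925), beside the chaperone gene DNAJC3, with 9.22, 7.14 and 8.53 CPM in rotenone, 3.17, 2.27 and 3.54 in MPP and 7.97, 8.56 and 7.16 in DMSO.

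Placed against DMSO, whose libraries both comparisons share, antisense genes had a median log2 difference of -0.36 in MPP and -0.07 in rotenone. For lincRNA genes these medians were -0.33 and -0.07. The divergent transcripts had a median against DMSO of -0.48 in MPP, with 43 lower and 1 higher, and of -0.02 in rotenone, with 4 lower and 1 higher. With the 2 groups alone 5 were higher and 0 lower (median 0.46), without MPP replicate 2 or 3 the count was 17 higher and 1 lower, and without rotenone replicate 1 the count was 33 higher and 2 lower (median 0.31). The medians without that library were 0.11 for antisense genes and 0.11 for lincRNA genes. Without MPP replicate 2 or 3, 29 or 34 antisense genes and 27 or 31 lincRNA genes were higher. These alternatives for the classes were added after the data were seen. Antisense and divergent genes can share reads with their neighbours where strand was not used in counting, and the part of depth, which was lowest in rotenone replicates 2 and 3, was not tested.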
